A study of Mus musculus with 48 samples.

Results

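The comparison concerned mouse 32D cells, a myeloid progenitor line that normally needs interleukin 3, made to express the BCR/ABL oncoprotein and then transduced with the MigRI retroviral vector without any insert. Expression at 6 h after 4-hydroxytamoxifen (4-HT) was set against expression at 0 h, with 3 Affymetrix MOE430_2 arrays at each time, which are 6 of the 48 arrays of the series. The arrays were chosen by their labels for vector and time, and all non-control probe sets were examined. The series was built around C/EBPα, a transcription factor of granulocyte differentiation, joined to an estrogen receptor domain so that 4-HT, a receptor ligand, switches it on. The empty vector line has no such fusion, and the comparison therefore asks what 6 h of 4-HT, culture and handling do to BCR/ABL cells by themselves. The other 3 lines, each with 3 arrays at 0 h and 3 at 6 h, carried the wild-type fusion (WT), the fusion K298E, called deficient in DNA binding by the labels, or Δ(177-191), called deficient in interaction with CDK2 and CDK4. All 4 lines expressed BCR/ABL, grew in Iscove medium with fetal bovine serum, glutamine and antibiotics, and were treated with 4-HT, and the labels count the later times from that treatment. Vector arrays at 9 h and 12 h were used for the time course.

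The labels name 1 line per construct, and they mention both triplicate samples and 3 independent experiments but do not link a replicate number to an experiment. The p-values below therefore measure the spread between these arrays, which may be technical. No vector culture without 4-HT at a later time was analysed here, so time in culture, handling and 4-HT cannot be told apart. The labels used here give neither the dose of 4-HT nor whether the medium was renewed when it was added.

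BCR/ABL is a constantly active tyrosine kinase that replaces growth factor signals in myeloid cells and keeps the RAS, STAT5 and PI3 kinase pathways on. Growing cells of this kind spend much of their transcription on ribosomes, nucleotides and DNA replication, which the transcription factor MYC promotes. When amino acids run short, the kinase GCN2 phosphorylates the initiation factor eIF2α and the transcription factor ATF4 is made, which turns on genes for amino acid synthesis, amino acid transport and tRNA charging. When oxygen runs short, HIF-1α escapes destruction and turns on genes for glucose use, pH control and mitochondrial turnover.

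The 6 arrays were alike in quality. Their median signals lay between 12 and 15 in MAS5 units, a linear brightness scale on which the deposited arrays share 1 scale, and 1.04% to 2.29% of probe sets were at 0. Control probe sets at the 3' and 5' ends stood in a ratio of 0.807 to 0.880 for Gapdh and 1.19 to 1.28 for actin. Correlations of log2 signals over 10746 bright probe sets were at least 0.989 among the 0 h arrays and 0.990 among the 6 h arrays, and at most 0.964 between the times. The number of arrays limits the precision given below. The Esr1 probe set of highest mean over all 48 arrays was at 19, 17 and 19 at 0 h and at 25, 12 and 17 at 6 h, while another Esr1 probe set went from a mean of 102.7 to 46.3 (-1.10 ± 0.13, adjusted p = 3.02e-08 in limma).

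Of the 9 genes used to check the myeloid progenitor identity, 7 were measured at clear levels. Ptprc, the leukocyte antigen CD45, was at 1785, 1738 and 1752 at 0 h and at 1428, 1774 and 1530 at 6 h. Csf2rb, the common receptor chain for interleukin 3, lay between 1276 and 1436 on the 6 arrays, and Il3ra, the specific chain, between 166 and 221. Myb and Gata2, progenitor transcription factors named in the title of the series, were at 1400 or more on every array, and Spi1, the factor PU.1, lay between 441 and 524. Kit, the stem cell factor receptor, was at 2 to 28, and Cd34 was at 1 to 8 and fell below the filter. Both defining progenitor surface genes were thus at or near background in these cells.

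Markers of other cell types were mixed: 10 of 23 granule genes, 5 of 29 monocyte and macrophage genes, 3 of 16 mast cell genes and 3 of 12 erythroid and megakaryocyte genes reached a signal of 100 on some array. Among the high ones, Ctsc lay between 2610 and 3471, Serpinb1a between 2583 and 3616, Fcer1g between 2164 and 2359, Tyrobp between 948 and 1308, Slc18a2 between 1303 and 1701 and Itga2b between 1390 and 1646. The neutrophil granule genes Mpo and Elane were at 3 to 20 on all 6 arrays, and the monocyte genes Cd14 and Mpeg1 at 1 to 18. Other members of these 2 lists were clearly measured. The granule genes Prtn3 and Lcn2 lay between 172 and 381 and between 272 and 443. Adgre1 and Cd68 of the monocyte and macrophage list lay between 527 and 688 and between 236 and 415. Col1a1 of fibroblasts, Cd3e of T cells and Hba-a1 of red cells did not exceed 13. The summed signal of 14 lymphoid markers was 117 to 179 at 0 h and 137 to 217 at 6 h with 0 markers reaching 100, and that of 16 fibroblast and stromal markers was 4284 to 4824 and 4546 to 4592, carried by Vim alone. The sum over 16 mast cell and basophil markers was 3613 to 3954 and 3705 to 3986, and that over 23 granule genes was 9711 to 10384 and 9406 to 10586. The sum over 29 monocyte and macrophage markers was lower at 6 h, at 4770 to 4973 against 5194 to 5443, and that over 12 erythroid and megakaryocyte markers was higher, at 4223 to 4493 against 3418 to 3572. Tfrc carried that rise, with 1646 to 1772 at 0 h and 2518 to 2839 at 6 h, while Gp9 of platelets lay at 88 to 114 and then at 55 to 65. In bulk samples fewer cells of a type and less RNA per cell cannot be told apart.

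At 6 h 4222 of 27167 probe sets tested (15.5%) passed an adjusted p of 0.05 in limma, 1826 higher (6.72%) and 2396 lower (8.82%). With each gene represented by its brightest probe set, 2609 of 12800 genes passed (20.4%), 1073 higher (8.38%) and 1536 lower (12%). Most changes were small. Of the genes that passed, 813 of the higher and 904 of the lower changed by less than 1.5-fold, whereas 48 rose (0.375% of genes tested) and 192 fell (1.5%) by 2-fold or more, and 1 rose and 7 fell by 4-fold or more. Among the 6517 genes with a mean signal of at least 100, 15.1% were higher and 18.1% lower. Counted without a test, 17.3% of genes had all 6 h arrays above and 21.4% all 6 h arrays below the 0 h arrays.

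The balance between rises and falls depended on the scaling of the arrays. The share of passing genes that were higher was 41.1% on the deposited scale, 45.5% after quantile normalization and 17.4% after centring each array on its median, where 205 genes were higher and 976 lower. Median centring moved the median change of all genes by -0.09 on the log2 scale, quantile normalization by 0.01. The array medians are whole numbers between 12 and 15, so that centring acts on coarse steps. The median change over all genes was -0.02 on the deposited scale. Rises of small size are therefore less certain than falls. Counts under another scaling are given for several lists, and a list without such a count is not thereby independent of the scaling.

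**Figure D1:**
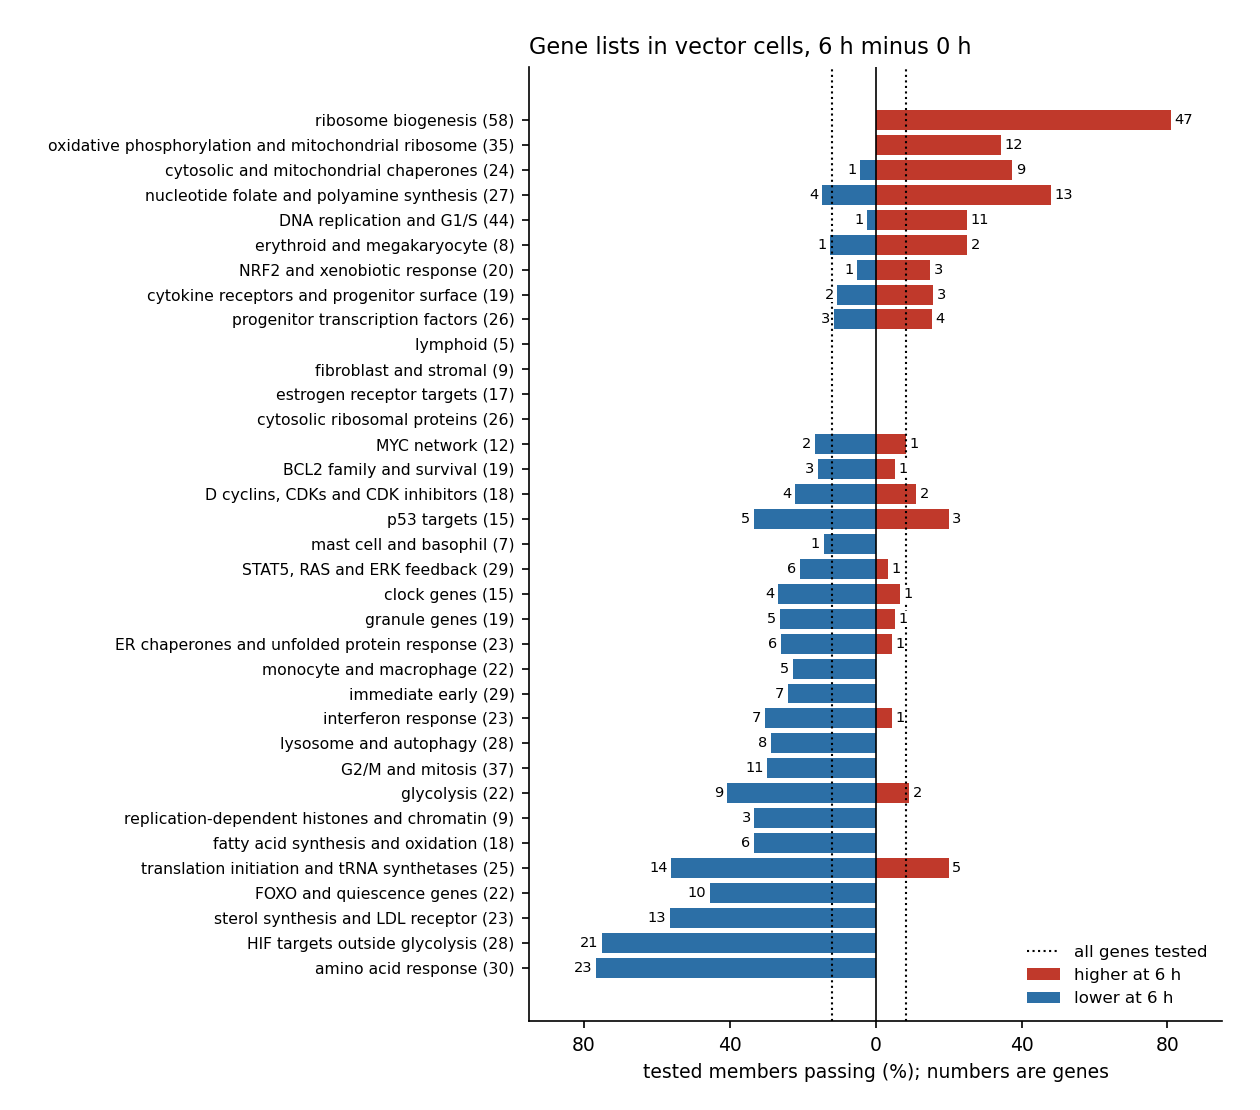
Share of the tested members of each of the 35 gene lists that passed the threshold in vector cells at 6 h against 0 h, with lower genes to the left and higher genes to the right; numbers at the bars are genes, numbers in brackets are members tested, and dotted lines mark the shares over all 12800 genes, 12% lower and 8.38% higher. Ribosome biogenesis (47 of 58 higher) stands at one end and the amino acid response (23 of 30 lower) and HIF targets (21 of 28 lower) at the other.

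Genes of the amino acid response fell together. Of 30 members tested, 23 were lower (76.7%, against 12% of all genes) and 0 higher, and the median change of the list was -0.79. Trib3, a pseudokinase that ATF4 induces and that inhibits AKT, was at 528, 621 and 621 at 0 h and at 123, 98 and 90 at 6 h, the deepest fall among the genes with a signal of at least 100. Every 6 h array lay far below every 0 h array. Its change was -2.48 ± 0.15 (log2, standard error; adjusted p = 1.12e-16 in limma), a 5.59-fold fall. Nupr1, a small chromatin protein induced by stress, went from 170, 173 and 175 to 59, 36 and 41 (-1.89 ± 0.12, adjusted p = 2.35e-16). Pck2, the mitochondrial phosphoenolpyruvate carboxykinase, went from 1048, 1018 and 1056 to 333, 273 and 301 (-1.78 ± 0.08, adjusted p = 9.21e-20). Gpt2, the mitochondrial alanine aminotransferase, went from 541, 537 and 576 to 178, 192 and 192 (-1.54 ± 0.16). In none of these genes did the groups overlap.

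The regulator itself was lower as well. Atf4, chosen for naming after its values were seen, was at 2286, 2252 and 2292 at 0 h and at 1054, 1084 and 1019 at 6 h (-1.11 ± 0.07, adjusted p = 2.39e-15 in limma). Its target Asns, asparagine synthetase, chosen in the same way, went from 1929, 1885 and 1926 to 901, 900 and 837 (-1.12 ± 0.06). Ddit3, the partner factor CHOP, changed by -1.41 and Ddit4, an inhibitor of mTORC1, by -1.10. The amino acid transporter genes Slc6a9, Slc1a4, Slc7a5, Slc1a5, Slc3a2, Slc7a1 and Slc38a2 all passed as lower, from -1.45 for Slc6a9 to -0.29 for Slc38a2. The serine synthesis genes differed among themselves. Psat1 fell by 0.93, whereas Phgdh stayed between 2786 and 3176 on all 6 arrays (-0.12, adjusted p = 0.624) and Psph changed by -0.26 (adjusted p = 0.313). The other members that did not pass were Stc2, Slc7a3, Cbs and Chac1, which lay between 1 and 21, and Slc7a11, the cystine transporter, at 50 to 77.

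Fgf21, a secreted metabolic factor named after its values were seen, went from 46, 42 and 48 to 7, 15 and 10 (-1.86 ± 0.53, adjusted p = 0.0105 in limma). The promoters of Trib3, Nupr1 and Pck2, the 3 deepest falls of the list with a signal of at least 100, hold the core of the amino acid response element, to which ATF4 and C/EBP factors bind, and are printed to show it. Each window runs from 250 bases before to 50 bases after the gene start, 5' to 3' on the gene's strand, from RefSeq on GRCm38.p6. Capitals mark TGATGNAA read on the opposite strand. Trib3 lies at chr2:152344011-152344310 (minus strand) with the match at base 15 of the gene, Nupr1 at chr7:126625421-126625720 (minus strand) with the match 110 bases before the start, and Pck2 at chr14:55540016-55540315 (plus strand) with the match 103 bases before it.
Trib3: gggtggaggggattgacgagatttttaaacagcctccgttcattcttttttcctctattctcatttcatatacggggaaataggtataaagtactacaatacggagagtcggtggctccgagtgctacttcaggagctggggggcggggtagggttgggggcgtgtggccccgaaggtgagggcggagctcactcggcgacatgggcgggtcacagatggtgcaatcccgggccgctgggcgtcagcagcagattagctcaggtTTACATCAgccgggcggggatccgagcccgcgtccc
Nupr1: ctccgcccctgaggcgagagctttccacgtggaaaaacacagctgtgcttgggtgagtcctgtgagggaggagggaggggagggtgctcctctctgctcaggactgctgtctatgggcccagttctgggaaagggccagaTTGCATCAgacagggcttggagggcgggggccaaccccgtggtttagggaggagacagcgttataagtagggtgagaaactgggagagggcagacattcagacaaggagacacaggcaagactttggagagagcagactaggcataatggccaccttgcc
Pck2: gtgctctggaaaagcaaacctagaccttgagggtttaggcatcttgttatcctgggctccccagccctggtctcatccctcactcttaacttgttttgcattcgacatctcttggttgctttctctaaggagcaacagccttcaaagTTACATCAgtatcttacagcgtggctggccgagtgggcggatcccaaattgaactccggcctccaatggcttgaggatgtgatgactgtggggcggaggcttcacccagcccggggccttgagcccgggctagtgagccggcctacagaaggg
Searched on both strands, TGATGNAA stood in 8 of 31 windows of the list's members (25.8%), in 5 of 22 windows of the translation and tRNA synthetase list (22.7%) and in 2.41% of the 13184 windows of all genes tested. The list was assembled in part from known ATF4 targets, so the shares are a description, and a match is not a shown binding site. A window was found for 10366 of the 12800 genes.

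Most tested genes for tRNA charging were lower too, although charging itself was not measured. Of 25 genes for aminoacyl-tRNA synthetases and initiation factors, 14 were lower (56%) and 5 higher (20%). The deepest fall was that of Cars, the cysteine enzyme, from 401, 418 and 434 to 104, 107 and 107 (-1.95 ± 0.10, adjusted p = 7.47e-19), a 3.86-fold change with no more than 3 units between the 6 h arrays. Sars, the serine enzyme, went from 1564, 1550 and 1528 to 675, 664 and 657 (-1.21 ± 0.09), and Aars, the alanine enzyme, from 1142, 1550 and 1548 to 731, 647 and 611 (-1.08 ± 0.13). The enzymes for asparagine, isoleucine, leucine, glycine, tyrosine, threonine, methionine, glutamate and proline, tryptophan and valine were lower too, from -1.07 for Nars to -0.30 for Vars, as was the initiation factor gene Eif2s2 (-0.34). Those for lysine, histidine and arginine and the beta chain for phenylalanine did not pass (Kars 0.05, Hars 0.12, Rars 0.15 and Farsb 0.17). The 5 rises were Farsa and the initiation factor genes Eif4e, Eif1a, Eif3b and Eif2b3, at 0.29 to 0.57, and none of the 5 passed under median centring.

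The mitochondrial enzymes that make one-carbon units from serine fell with them. Mthfd2 went from 973, 934 and 979 to 331, 303 and 344 (-1.55 ± 0.08, adjusted p = 2.43e-19), Shmt2 from 1290, 1304 and 1238 to 676, 707 and 721 (-0.86 ± 0.09) and Mthfd1l from 651, 665 and 670 to 487, 517 and 491 (-0.41 ± 0.06). The cytosolic enzyme Shmt1 moved the other way, from 164, 163 and 133 to 270, 259 and 247 (0.75 ± 0.13, adjusted p = 1.61e-05). All 4 genes separated the times without overlap.

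Part of this fall was undone by 9 h. The contrasts with 0 h at 6, 9 and 12 h share the 0 h arrays, so the 9 h arrays were also set directly against the 6 h arrays, a test added after seeing the data, in which 1107 genes passed (8.65%), 677 higher (5.29%) and 430 lower (3.36%). In it 10 of the 30 members of the amino acid list and 14 of the 25 of the tRNA list were higher, 0 and 1 lower. Cars rose by 1.37 ± 0.10 from 6 to 9 h (adjusted p = 2.16e-13 in limma), Mthfd2 by 1.19 ± 0.08, Pck2 by 0.97 ± 0.08, Trib3 by 0.91 ± 0.15 and Atf4 by 0.81. They remained below 0 h at 9 h, at -0.57 for Cars, -0.36 for Mthfd2, -0.81 for Pck2 and -1.57 for Trib3. Not every member turned: Slc6a9 (0.16), Ddit3 (0.15) and Slc7a5 (-0.02) did not pass between 6 and 9 h.

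**Figure D2:**
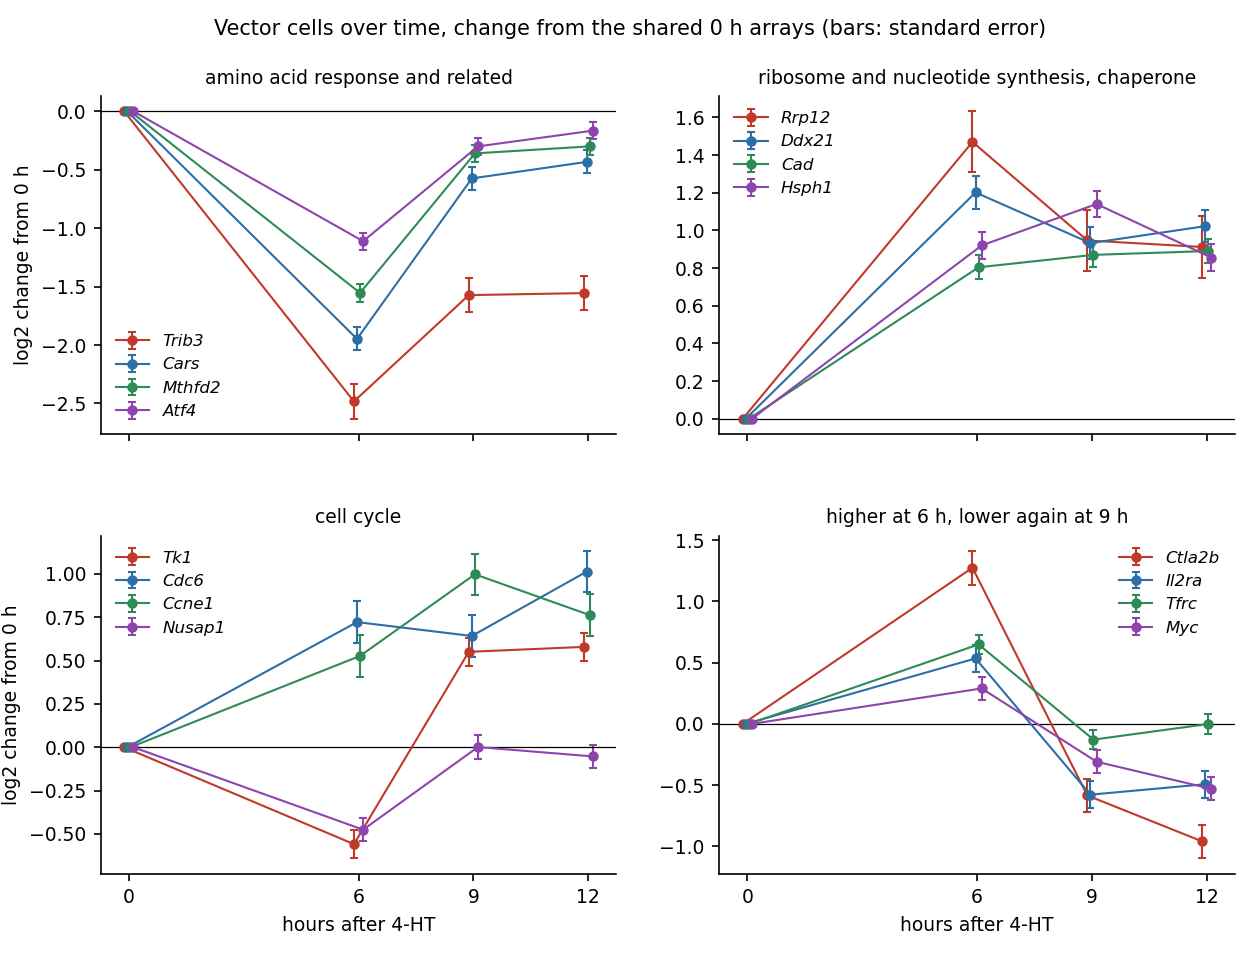
Change in vector cells from 0 h (log2, y axes; bars are standard errors of the model, 3 arrays per time) against hours after 4-HT (x axes) for 4 genes in each of 4 panels; all points share the 0 h arrays. Cars, Mthfd2 and Atf4 are deepest at 6 h, Tk1 passes from -0.56 at 6 h to 0.55 at 9 h, and Ctla2b goes from 1.27 to -0.58.

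Most targets of the hypoxia factor HIF fell. Of 28 targets outside glycolysis, 21 were lower (75%) and 0 higher, with a median of -0.82. Selenbp1, a selenium-binding protein with methanethiol oxidase activity, went from 596, 664 and 674 to 164, 163 and 138 (-2.04 ± 0.13, adjusted p = 1.1e-15). Ankrd37, an ankyrin repeat gene, went from 116, 122 and 128 to 35, 35 and 40 (-1.66 ± 0.26, adjusted p = 6.1e-06), and Ndrg1, a stress gene of the NDRG family, from 736, 739 and 775 to 258, 264 and 224 (-1.58 ± 0.10, adjusted p = 1.49e-15). All 6 h arrays lay below the 0 h arrays for the 3 genes. The oxygen sensors Egln3 (-1.08) and Egln1 (-0.61), the mitophagy gene Bnip3 (-1.16), the pH regulator Car9 (-1.09), the pyruvate dehydrogenase kinase Pdk1 (-0.87) and the prolyl hydroxylase of collagen P4ha1 (-0.88) were lower. So were genes of glycogen, Gys1 (-1.02), Gbe1 (-1.02) and Pgm1 (-0.88). Vegfa, the vascular growth factor, was at 232, 204 and 211 and then at 163, 191 and 156 and did not pass (-0.34, adjusted p = 0.215). Car12, Pgm2, Angptl4 and the low genes Stc2, Nrn1 and Rora did not pass either.

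The hypoxia response element core ACGTG stands in the windows of Selenbp1, at chr3:94932833-94933132 (plus strand), 204 bases before the start, and of Ankrd37, at chr8:45999801-46000100 (minus strand), 241 and 6 bases before it. They are printed with the core in capitals, on either strand. For Ndrg1, searched in the same way, no match was found, whether a window lacked it or was missing.
Selenbp1: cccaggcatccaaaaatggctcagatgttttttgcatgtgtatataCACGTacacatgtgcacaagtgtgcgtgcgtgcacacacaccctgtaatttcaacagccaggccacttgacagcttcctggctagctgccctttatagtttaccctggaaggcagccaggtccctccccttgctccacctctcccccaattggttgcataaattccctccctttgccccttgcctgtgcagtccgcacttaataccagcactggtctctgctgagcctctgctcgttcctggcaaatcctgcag
Ankrd37: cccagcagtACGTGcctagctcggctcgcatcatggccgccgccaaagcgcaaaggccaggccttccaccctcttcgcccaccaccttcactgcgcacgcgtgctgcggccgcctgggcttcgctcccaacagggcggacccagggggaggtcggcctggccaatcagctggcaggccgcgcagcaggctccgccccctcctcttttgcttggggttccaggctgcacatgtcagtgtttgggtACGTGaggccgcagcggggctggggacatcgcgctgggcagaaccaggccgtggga
ACGTG, searched on both strands, was in 19 of 34 windows of the list (55.9%), in 18 of 31 windows of the glycolysis list (58.1%) and in 24.7% of the windows of all genes tested. It was also in 12 of 22 windows of the tRNA list (54.5%), a share near that of the HIF list. Ribosome biogenesis had it in 23 of 61 windows (37.7%) and the amino acid response in 10 of 31 (32.3%). A high share was therefore not particular to HIF targets and glycolysis. The HIF list too was assembled in part from known targets.

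Glycolysis, much of which HIF also controls, was split. Of 22 genes 9 were lower (40.9%) and 2 higher (9.09%). The phosphofructokinase step was lower in all its forms, with Pfkm from 352, 346 and 346 to 167, 167 and 199 (-0.96 ± 0.09, adjusted p = 3.45e-11), Pfkp from 1393, 1267 and 1310 to 776, 769 and 733 (-0.80 ± 0.08) and Pfkl at -0.42. Pfkfb4, which makes the activator of this step, went from 128, 116 and 109 to 61, 62 and 46 (-1.03 ± 0.15). Tpi1, triosephosphate isomerase, was at -0.52, and the glucose transporters Slc2a1 (-0.63) and Slc2a3 (-0.26) and the hexokinases Hk3 (-0.41) and Hk2 (-0.40) were lower. Other abundant enzymes did not pass, with Aldoa at 0.01, Pgk1 at 0.21, Pkm at 0.09 and Ldha at 0.05. Of the 2 small rises, the lactate transporter Slc16a1 (0.34) and Gpd1l (0.20), neither passed under median centring, and their calls were lost without several single arrays. Between 6 and 9 h 4 HIF targets rose and 1 fell, so that the list was still at a median of -0.55 at 9 h and -0.43 at 12 h.

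Ribosome biogenesis rose. This is the making of ribosomal RNA and its assembly with proteins in the nucleolus. Of 58 genes 47 were higher (81%, against 8.38% of all genes) and 0 lower, with a median of 0.53 and a range from 0.10 to 1.47, and 53 had all 6 h arrays above the 0 h arrays. After median centring 25 of the 58 passed as higher, and over the single arrays left out 39 to 46. Rrp12, needed for export of both subunits, went from 55, 40 and 47 to 123, 130 and 155 (1.47 ± 0.16, adjusted p = 3.39e-09). Rrp9, a part of the U3 particle, went from 277, 147 and 223 to 464, 518 and 527 (1.25 ± 0.17), and Utp20, of the small subunit processome, from 142, 125 and 122 to 330, 283 and 301 (1.21 ± 0.10, adjusted p = 4.94e-13). Ddx21, a nucleolar RNA helicase, went from 217, 202 and 252 to 549, 484 and 517 (1.20 ± 0.09). Polr1b and Polr1a, subunits of RNA polymerase I, changed by 0.98 and 0.42, Nop56, Nop58 and Fbl of the box C/D particles by 0.69, 0.66 and 0.47, and Dkc1 of the pseudouridylation particle by 0.88. Npm1, nucleophosmin, at 0.33 (adjusted p = 0.209), and 10 others did not pass.

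The promoter of Utp20 holds CACGTG, the E-box that MYC and its partner MAX bind, and is printed with the E-box in capitals. The window is chr10:88826765-88827064 (minus strand) and the match starts at base 38 of the gene. For Rrp12 and Rrp9, the larger rises of the list, no match was found, whether a window lacked it or was missing.
Utp20: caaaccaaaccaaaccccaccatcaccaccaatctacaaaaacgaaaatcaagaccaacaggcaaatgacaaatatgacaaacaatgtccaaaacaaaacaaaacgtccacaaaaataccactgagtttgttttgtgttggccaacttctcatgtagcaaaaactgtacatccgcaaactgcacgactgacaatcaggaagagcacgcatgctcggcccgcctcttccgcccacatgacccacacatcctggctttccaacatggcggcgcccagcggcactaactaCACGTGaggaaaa
CACGTG was in 13 of 61 windows of ribosome biogenesis genes (21.3%), in 9 of 22 of the tRNA list (40.9%) and in 9.53% of those of all genes tested. In the tRNA list most of these windows belonged to genes that did not fall. They were Eif4a1 (0.38), Eif4e (0.33), Farsb (0.17) and Eif5a (0.29), the last counted with several windows. The others belonged to Tars, Iars and Aars, which fell. CACGTG contains ACGTG, so the searches for the E-box and for the hypoxia element overlap.

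The proteins of the ribosome itself did not pass. Of 26 cytosolic ribosomal protein genes 0 were called higher or lower by limma (2 higher and 0 lower at an unadjusted p of 0.05), although 20 had all 6 h arrays above the 0 h arrays, and their median was 0.21. With the spread taken from the 12 vector arrays alone 9 passed as higher, and with the 6 compared arrays 12. After quantile normalization the median was 0.01 and 1 passed. Rps2, for example, was at 5118, 4996 and 5105 and then at 6462, 5933 and 5629, 0.24 on the log2 scale.

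In the list of nucleotide, folate and polyamine synthesis 13 of 27 were higher (48.1%) and 4 lower, the latter Ctps2 and the 3 mitochondrial folate genes above. Srm, spermidine synthase, went from 1179, 1172 and 1152 to 2477, 2437 and 2289 (1.04 ± 0.07, adjusted p = 1.8e-14), and Cad, which starts pyrimidine synthesis, from 403, 411 and 393 to 696, 725 and 693 (0.80 ± 0.06). Among 24 chaperone genes 9 were higher (37.5%) and 1 lower. Hsph1, of the HSP110 family, went from 329, 328 and 336 to 601, 659 and 628 (0.92 ± 0.07), Hspd1, the mitochondrial HSP60, from 2065, 2012 and 1994 to 3374, 3472 and 3352 (0.75 ± 0.11), and Ahsa1, an activator of HSP90, by 0.61. Of 35 genes of oxidative phosphorylation, mitochondrial import and mitochondrial ribosomes 12 were higher (34.3%) and 0 lower, led by the import genes Timm10 (0.91 ± 0.08), Timm8a1 (0.82 ± 0.09) and Tomm40 (0.72 ± 0.09). After median centring the count of higher genes was 10 in the nucleotide list, 4 among chaperones and 6 in the mitochondrial list.

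**Figure D3:**
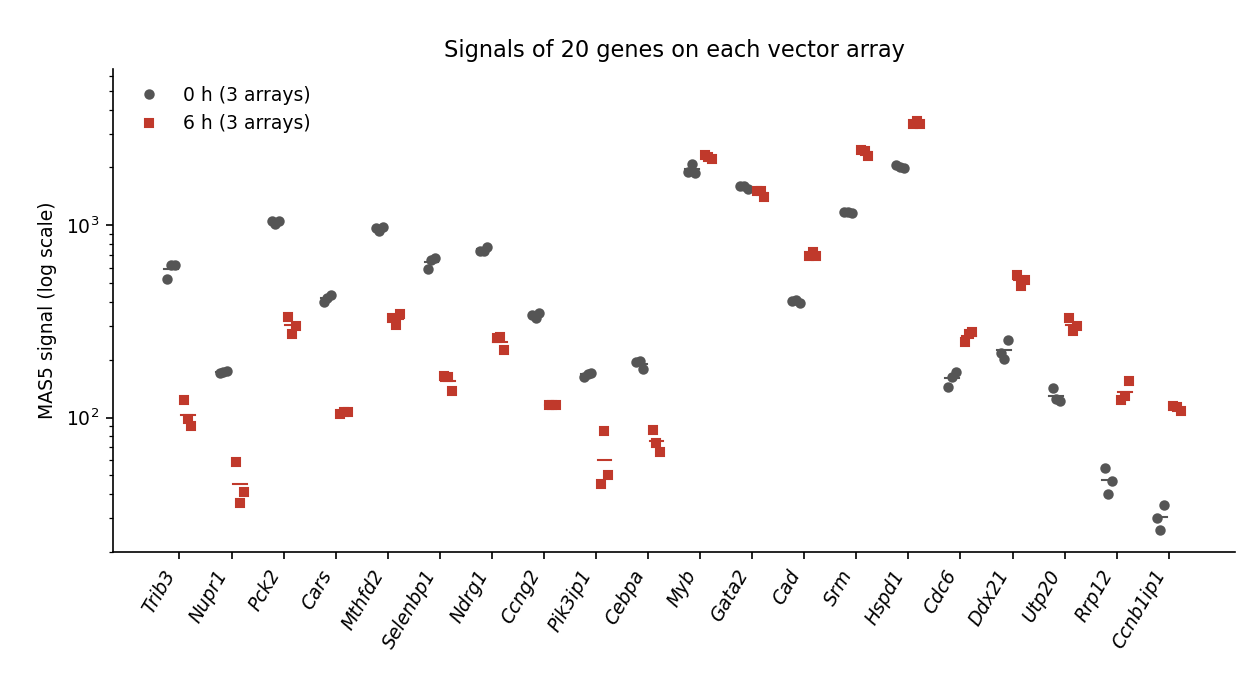
MAS5 signal (log axis) of 20 genes on each vector array, with 3 circles for 0 h, 3 squares for 6 h and short lines for the means. Genes that fell stand on the left and genes that rose on the right, not sorted by size, with Myb and Gata2 between them. The 0 h and 6 h arrays overlap for none of the 20 genes, although the shifts of Myb and Gata2 did not pass the test.

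Of the MYC network, Myc was at 791, 814 and 953 at 0 h and at 978, 1049 and 1093 at 6 h, a rise of 0.29 ± 0.09 (adjusted p = 0.0265 in limma) that did not pass after median centring or without some single arrays. At 9 and 12 h Myc was below 0 h, at -0.31 and -0.53. Mxi1, a MYC antagonist and HIF target, went from 571, 499 and 461 to 303, 295 and 288 (-0.78 ± 0.08, adjusted p = 2e-09), and Mxd4, of the same family, from 138, 150 and 140 to 118, 93 and 92 (-0.49 ± 0.15), a call lost after median centring and without the second 0 h array, the second 6 h array or the third 6 h array. The other 9 members tested did not pass, among them Max at 0.43 (adjusted p = 0.166).

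Of 44 genes of DNA replication and the G1/S transition, 11 were higher (25%) and 1 lower. Ung, uracil DNA glycosylase, went from 69, 80 and 73 to 145, 146 and 142 (0.94 ± 0.18, adjusted p = 9.4e-05). Cdc6, which loads the replicative helicase, went from 145, 163 and 172 to 246, 273 and 278 (0.72 ± 0.12), and Ccne1, cyclin E1, from 252, 300 and 289 to 433, 419 and 364 (0.53 ± 0.12; not passing after median centring). Tk1, thymidine kinase, was the member that fell, from 475, 542 and 481 to 355, 340 and 318 (-0.56 ± 0.08, adjusted p = 1.26e-06). The count of higher members was 2 after median centring and 7 without the first 0 h array. At 9 h 39 of the 44 were above 0 h, where 9.06% of all genes were higher and 9.96% lower, and at 12 h 37, where 7.69% were higher and 9.73% lower. Set directly against 6 h 27 were higher at 9 h (5.29% of all genes) and 32 at 12 h (5.02%, with 4.05% lower), 0 lower at either, with Tk1 up by 1.11 ± 0.08 from 6 to 9 h.

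Of 37 genes of G2 and mitosis 11 were lower at 6 h (29.7%) and 0 higher. Espl1, separase, went from 242, 254 and 204 to 137, 183 and 153 (-0.56 ± 0.12, adjusted p = 0.000372). Nusap1, a spindle protein, went from 1186, 1258 and 1101 to 828, 881 and 835 (-0.48 ± 0.07), and Ccnb2, cyclin B2, from 1535, 1556 and 1590 to 1214, 1100 and 1120 (-0.45 ± 0.06). The regulators Cdk1 (-0.00), Plk1 (-0.03) and Ccna2 (0.12) did not pass. After median centring 4 passed as lower and with array weights 17. Set against 6 h, 22 of the 37 were higher at 9 h and 21 at 12 h, with 0 lower, and Nusap1 was at 0.00 from 0 h at 9 h. Of the histone genes H1f2, the linker histone H1.2, fell by 0.62 and H2az2 by 0.44. H2ax, at -0.31, lost its call in several alternatives.

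Among cyclins, kinases and inhibitors, 4 of 18 were lower (22.2%) and 2 higher (11.1%). Of all genes 12% were lower and 8.38% higher, and of those with a mean signal of at least 100, 18.1% and 15.1%. The counts of this list were near the latter shares. Ccng2, a cyclin of resting cells, went from 342, 328 and 351 to 116 on each of the 6 h arrays (-1.53 ± 0.10, adjusted p = 1.18e-15). Tob1 (-0.55) and the retinoblastoma relative Rbl2 (-0.42) were lower, the former lost without most single arrays and both after median centring, and so was the CDK4 inhibitor gene Cdkn2d (-0.41). Cdk6 went from 1688, 1744 and 1572 to 2428, 2127 and 2167 (0.42 ± 0.08), and Ccng1, a p53 target, from 908, 908 and 945 to 1316, 1265 and 1138 (0.43 ± 0.07). Neither passed after median centring. Cdkn1b, the inhibitor p27, was at 189, 223 and 256 and then at 95, 195 and 211, with overlapping groups (-0.48 ± 0.28, adjusted p = 0.309). Cdkn1a, the inhibitor p21, lay between 1966 and 2309 on all arrays (-0.06, adjusted p = 0.797).

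FOXO factors, which turn on genes of quiescence, are kept out of the nucleus by AKT. Of 22 genes of FOXO and quiescence 10 were lower (45.5%), 0 higher and 12 did not pass, with a median of -0.39. Pik3ip1, an inhibitor of PI3 kinase, went from 163, 169 and 171 to 45, 85 and 50 (-1.49 ± 0.15, adjusted p = 6.3e-10). Ypel3 went from 187, 192 and 198 to 81, 93 and 85 (-1.13 ± 0.11), and Arrdc3, an arrestin-like adaptor, from 162, 195 and 147 to 79, 85 and 71 (-1.07 ± 0.17). Txnip, a thioredoxin-binding protein that limits glucose uptake, went from 2023, 2048 and 1898 to 1142, 1411 and 1289 (-0.64 ± 0.08). Foxo3 (-0.32, adjusted p = 0.102) and Bcl2l11, the cell death gene BIM (-0.22, adjusted p = 0.266), did not pass. At 9 h and 12 h 11 and 13 members were below 0 h and 1 above.

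Survival genes passed at shares near those of all genes. Of the BCL2 family and survival list 3 of 19 were lower (15.8%, against 12% of all genes) and 1 higher (5.26%, against 8.38%). The lower ones were the inhibitors of apoptosis Birc2 (-0.78 ± 0.12) and Birc3 (-0.64 ± 0.13) and the death gene Bbc3. Bbc3, called PUMA, went from 230, 217 and 244 to 136, 137 and 139 (-0.73 ± 0.11). Aven, an inhibitor of caspase activation, went from 73, 71 and 76 to 169, 159 and 165 (1.13 ± 0.14, adjusted p = 3.74e-08). Mcl1, Bcl2l1 and Bcl2 did not pass. Of 15 p53 targets 3 were higher (20%) and 5 lower (33.3%), against 8.38% and 12% of all genes. After median centring 1 was higher and 4 were lower. Aen, a nuclease of apoptosis, went from 222, 247 and 248 to 462, 428 and 437 (0.88 ± 0.10). Ei24 changed by 0.20, a call lost after median centring and without the first 0 h or second 6 h array. Sesn1 (-0.58) and Gadd45a (-0.59) were among the lower ones, of which 3 were left without the second 6 h array. Gadd45a lost its call without that array, with the 12 vector arrays alone and with the replicate block (adjusted p = 0.112, 0.0869 and 0.104 in limma).

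Of 23 genes of sterol synthesis 13 were lower (56.5%) and 0 higher, with a median of -0.34, and 7 passed after median centring. Mvd, mevalonate diphosphate decarboxylase, went from 180, 196 and 224 to 99, 105 and 108 (-0.92 ± 0.11, adjusted p = 1.03e-08). Srebf2, the factor that drives the pathway, went from 668, 627 and 565 to 425, 284 and 385 (-0.78 ± 0.13) and Fdft1, squalene synthase, from 368, 394 and 352 to 237, 220 and 210 (-0.73 ± 0.10). Set against 6 h, 8 were higher at 9 h and 0 lower, with Srebf2 up by 0.67 ± 0.13. In the fatty acid list 6 of 18 were lower (33.3%) and 0 higher, with 4 lower after median centring and 3 without the second 6 h array. The desaturases Fads2 (-0.74 ± 0.11) and Fads1 (-0.74 ± 0.09) fell, as did Cpt2 of mitochondrial import (-0.63 ± 0.17), whose call was lost without the second 6 h array.

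Most listed genes of kinase pathways and of the immediate early response did not pass, and kinase activity was not measured. Of all genes 12% were lower and 8.38% higher, and of those with a mean signal of at least 100, 18.1% and 15.1%. In both lists the share of lower genes was above 12%. Of 29 genes of STAT5, RAS and ERK feedback 6 were lower (20.7%) and 1 higher, and the lower count was 3 after quantile normalization and 3 to 5 with single arrays left out, 3 without the third 0 h array. Pim2, a survival kinase, went from 521, 541 and 559 to 325, 315 and 315 (-0.76 ± 0.07, adjusted p = 1.44e-10), and Lif, a cytokine gene, from 86, 111 and 111 to 43, 45 and 48 (-1.12 ± 0.23). Dusp2, a phosphatase of ERK, changed by -0.60 and lost its call without several single arrays. The STAT5 targets Cish (-0.07), Socs2 (0.14), Pim1 (-0.19) and Bcl2l1 (-0.06) and the ERK target Dusp6 (-0.08) did not pass. Of 29 immediate early genes 7 were lower (24.1%) and 0 higher, among them Junb, from 277, 289 and 276 to 194, 155 and 167 (-0.70 ± 0.12), Klf10 (-0.74 ± 0.14) and Tnfaip3 (-0.77 ± 0.19). Fos, Jun and Egr1 did not pass.

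Of 17 estrogen receptor targets 0 were called by limma in either direction on this scale (3 higher and 2 lower at an unadjusted p of 0.05), and up to 3 were lower and up to 2 higher among the alternatives. Of 20 genes of the NRF2 and xenobiotic response, 3 were higher (15%) and 1 lower (5%), against 8.38% and 12% of all genes. Gclm, of glutathione synthesis, went from 1664, 1762 and 1870 to 2608, 2487 and 2449 (0.51 ± 0.08), although its other probe set gave -0.18 (adjusted p = 0.292). Pgd, of the pentose phosphate pathway, rose by 0.65 ± 0.13 and Txnrd1, thioredoxin reductase, by 0.29 ± 0.07. Gclm and Txnrd1 did not pass after median centring. Hmox1, heme oxygenase, fell from 776, 893 and 952 to 488, 506 and 496 (-0.81 ± 0.10, adjusted p = 5.64e-08) and was at -1.68 at 9 h.

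In the endoplasmic reticulum list 6 of 23 were lower (26.1%) and 1 higher, and 10 or 11 were lower in several alternatives. After median centring 4 were lower and 0 higher. Herpud1, of protein degradation from the reticulum and a target of ATF4 too, went from 564, 570 and 586 to 242, 244 and 263 (-1.19 ± 0.09, adjusted p = 2.91e-13). Ern1, the sensor IRE1, went from 353, 344 and 344 to 200, 214 and 217 (-0.72 ± 0.11), and Hspa13 changed by -0.66. The other Ern1 probe sets, which were dimmer, did not pass. Dnajc3, the cochaperone p58IPK, rose by 0.53 ± 0.08 and did not pass after median centring. Of 28 lysosome and autophagy genes 8 were lower (28.6%) and 0 higher, and 5 passed after median centring. Wipi1, of autophagosome formation, went from 195, 197 and 184 to 78, 78 and 84 (-1.23 ± 0.12, adjusted p = 7.05e-11), and Ctsa and Gla, lysosomal enzymes, changed by -0.60 and -0.49.

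Of 23 interferon response genes 7 were lower (30.4%, against 12% of all genes) and 1 higher. With array weights 12 were lower, and after median centring 5 were lower and 0 higher. Isg20, an exonuclease, went from 404, 359 and 418 to 186, 181 and 157 (-1.16 ± 0.16), Stat2 from 101, 116 and 111 to 68, 71 and 49 (-0.79 ± 0.13) and Psmb9, of the immunoproteasome, from 605, 586 and 574 to 329, 347 and 349 (-0.78 ± 0.10). Ifi35 rose by 0.40, which did not pass after median centring. Of 15 clock genes 4 were lower (26.7%) and 1 higher (6.67%), against 12% and 8.38% of all genes. Dbp, a clock output factor, went from 128, 108 and 109 to 47, 46 and 58 (-1.15 ± 0.19), and its counterpart Nfil3 from 463, 473 and 576 to 226, 266 and 245 (-1.02 ± 0.15). Ciart and the one rise, Nr1d2, lost their calls without most single arrays.

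The progenitor transcription factors in the title of the series did not pass at 6 h. Myb was at 1891, 2089 and 1878 and then at 2308, 2253 and 2218, all 6 h arrays above, a change of 0.21 ± 0.10 (adjusted p = 0.171 in limma). With the spread of the 12 vector arrays or of the 6 compared arrays its adjusted p in limma was 0.0183 and 0.0308. Gata2 was at 1604, 1599 and 1547 and then at 1516, 1510 and 1400, all 6 h arrays below (-0.10 ± 0.08, adjusted p = 0.523). Of 26 such factors 4 were higher (15.4%) and 3 lower (11.5%), against 8.38% and 12% of all genes. Of genes with a mean signal of at least 100, 15.1% were higher and 18.1% lower. The native Cebpa gene fell from 194, 198 and 179 to 86, 74 and 66 (-1.31 ± 0.14, adjusted p = 3.25e-09), and further to -2.03 at 9 h and -1.99 at 12 h. Gfi1b, of the erythroid and megakaryocyte lineages, went from 284, 280 and 280 to 169, 170 and 180 (-0.69 ± 0.14), and Nfe2, of the same lineages, from 669, 722 and 779 to 501, 451 and 461 (-0.61 ± 0.10). Cebpb fell from 606, 585 and 632 to 395, 442 and 469 (-0.48 ± 0.10, adjusted p = 0.000491). The rises were those of Bmi1 (0.59), Fli1 (0.47), Etv6 (0.29) and Cbfb (0.28), and none passed after median centring, while 2 were left without the first 0 h array. The call of Etv6 was also lost without the third 0 h array, the first 6 h array or the third 6 h array. Gfi1 (0.11) and Spi1 (0.04) did not pass.

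Some genes of granules and phagocytes fell, next to a lower summed signal of the monocyte list given above, whose part in these values was not tested. Of 22 monocyte and macrophage genes tested 5 were lower (22.7%) and 0 higher, and of 19 granule genes 5 were lower (26.3%) and 1 higher. Of all genes 12% were lower, and of those with a mean signal of at least 100, 18.1%. Cd68, a lysosomal protein of phagocytes, went from 410, 415 and 405 to 236, 248 and 241 (-0.76 ± 0.08, adjusted p = 1.23e-09), and Lgals3, galectin 3, from 63, 86 and 84 to 47, 41 and 51 (-0.70 ± 0.17; adjusted p = 0.0555 in limma with a replicate block). Ltb4r1, the leukotriene B4 receptor, went from 348, 325 and 336 to 148, 159 and 189 (-1.02 ± 0.14), Prtn3, proteinase 3, from 339 ± 41.5 to 186 ± 15.2 (mean ± SD, n = 3; change -0.86 ± 0.13) and Lcn2, lipocalin 2, from 432, 436 and 443 to 272, 273 and 275 (-0.67 ± 0.14). The groups did not overlap for any of these 5 falling genes. All 6 h arrays lay above the 0 h arrays for 2 granule genes, Ctsc and Serpinb1a, and below them for 9. In the monocyte list they lay above for 2 genes, Ccl9 and the dim Ccl3, and below for 6. Of 19 cytokine receptor and surface genes 3 were higher (15.8%) and 2 lower (10.5%), against 8.38% and 12% of all genes. Podxl was at 0.68, Csf2rb2 at 0.30, Spn at 0.28, Tnfrsf1a at -0.41 and Il18r1 at -0.52. The 3 rises did not pass after median centring, and that of Spn was lost without 4 of the single arrays. The fall of Il18r1 was lost without the first 0 h array or any 6 h array, and with quantile normalization, median centring or the 12 vector arrays alone. Of 7 mast cell genes 1 was lower (14.3%). Of 8 erythroid and megakaryocyte genes 2 were higher (25%), Tfrc and Pf4 (0.47), and 1 lower (12.5%). The call of Pf4 was lost after median centring, without the filter, in fits of the vector arrays alone and without most single arrays. Of 5 lymphoid and 9 fibroblast genes 0 passed in limma, and 0 at an unadjusted p of 0.05.

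Some genes higher at 6 h were at or below the 0 h level at 9 h, and 4 of them, chosen after their values were seen, are described without a test of that pattern. Ctla2b, a cysteine protease inhibitor gene with a close relative, Ctla2a, that the probes may also read, was at 189, 204 and 228 at 0 h and at 491, 521 and 499 at 6 h (1.27 ± 0.14, adjusted p = 1.98e-09). At 9 h and 12 h it was below 0 h, at -0.58 and -0.96. Il2ra, the interleukin 2 receptor chain and a STAT5 target, went from 1154, 1131 and 1093 to 1563, 1705 and 1629 (0.53 ± 0.11, adjusted p = 0.000414) and then to -0.58 and -0.49. Tfrc, the transferrin receptor, went from 1698, 1646 and 1772 to 2673, 2839 and 2518 (0.65 ± 0.08) and was at -0.13 and -0.00 at the later times. Igf2os, a non-coding gene, rose from 88, 105 and 106 to 268, 214 and 234 (1.23 ± 0.26) and stood at -0.31 and -0.09. The rise of Il2ra did not pass after median centring, and its other tested probe set gave 0.23 (adjusted p = 0.108 in limma).

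Other large rises fell outside the lists. Ccnb1ip1, a ubiquitin ligase gene known from meiosis, rose most among genes with a signal of at least 100, from 30, 26 and 35 to 115, 114 and 108 (1.80 ± 0.17, adjusted p = 1.25e-10), 3.48-fold. Ndufaf4, an assembly factor of respiratory complex I, went from 206, 201 and 179 to 538, 540 and 472 (1.39 ± 0.16), and Rbm19, a nucleolar RNA-binding protein, from 61, 43 and 50 to 137, 127 and 135 (1.34 ± 0.13). Snhg3, a host gene of small nucleolar RNA, changed by 1.32, Trmt61a, a tRNA methyltransferase subunit, by 1.22, and Dctd, deoxycytidylate deaminase, by 1.10. The annotated transcripts 6530402F18Rik and Gm17399 rose by 1.44 and 1.22. All 6 h arrays lay above the 0 h arrays for these 8 genes.

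Falls outside the lists were as deep. Glrp1, a glutamine repeat protein gene, went from 225, 213 and 223 to 52, 43 and 49 (-2.13 ± 0.15, adjusted p = 6.05e-15), 4.39-fold. Tnfaip2, induced by TNF in other cells, went from 148, 154 and 180 to 43, 33 and 50 (-1.88 ± 0.20), Nme7, a nucleoside diphosphate kinase family gene, from 174, 179 and 170 to 59, 53 and 59 (-1.56 ± 0.13), Pi16 from 99, 100 and 108 to 31, 31 and 37 (-1.55 ± 0.13) and Lpin1, a phosphatidate phosphatase, from 283, 287 and 279 to 86, 99 and 100 (-1.55 ± 0.12). Of the 147 genes named by rule, 77 had other tested probe sets, 122 in all. Of these 112 had the sign of the represented probe set, and 0 passed in the opposite direction. Many of the other probe sets did not pass, those of Il2ra, Ern1, Fli1, Bmi1 and Spn among them.

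The fusion lines share no arrays with the vector line, so their changes at 6 h could be set beside it. Of the 1073 genes higher in vector cells, 433 (40.4%) were also higher in K298E cells, which is 62.4% of that line's 694, where 5.42% of all genes were. Of the 1536 lower, 678 (44.1%) were also lower in K298E cells, 75.6% of that line's 897, where 7.01% of all genes were. In WT cells 831 (77.4%) and 1112 (72.4%) went the same way, 48.2% and 45.8% of that line's calls, against 13.5% and 19% of all genes, and in Δ(177-191) cells 367 (34.2%) and 837 (54.5%), 23.5% and 35.8% of that line's calls, against 12.2% and 18.3%. In Δ(177-191) cells 122 of the vector rises fell and 181 of the vector falls rose. In all 3 fusion lines together 169 of the vector rises (15.8%) and 417 of the falls (27.1%) were found, Rrp12, Utp20 and Ddx21 among the former and Trib3, Glrp1, Selenbp1, Cars and Pck2 among the latter. Across the 12800 genes, which are not independent replicates, the vector change correlated with that of K298E at 0.40, of WT at 0.45 and of Δ(177-191) at 0.25.

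**Figure D4:**
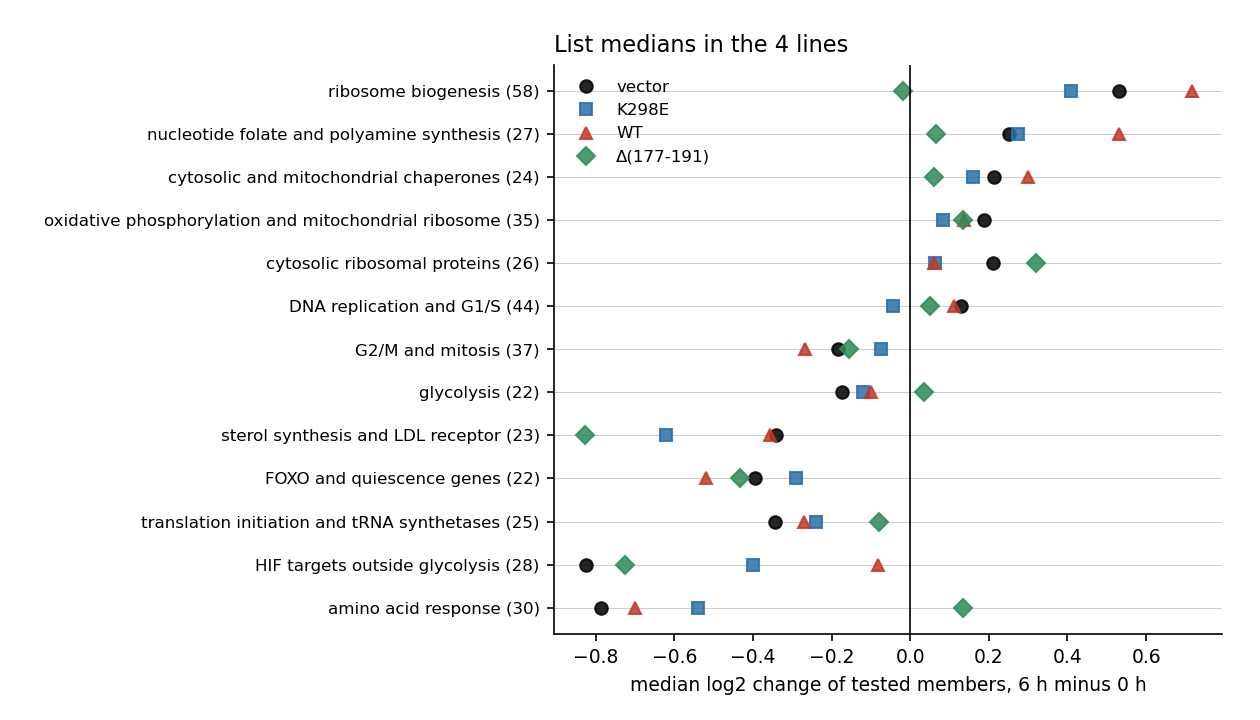
Median log2 change at 6 h against 0 h (x axis) over the tested members of 13 lists (number in brackets) in the vector, K298E, WT and Δ(177-191) lines. Vector, K298E and WT cells lie on the same side of 0 for ribosome biogenesis (0.53, 0.41 and 0.72) and the amino acid response (-0.79, -0.54 and -0.70), where Δ(177-191) cells lie at -0.02 and 0.14.

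Ribosome biogenesis had 38 of 58 members higher and 0 lower in K298E cells, 50 and 0 in WT cells, and 13 higher and 13 lower in Δ(177-191) cells. Tested as a difference between lines, 46 of the 58 were higher in vector than in Δ(177-191) cells (0 lower, against 10.1% of all genes higher) and 1 was lower than in WT cells. Of the amino acid response 17 of 30 were lower in K298E and in WT cells, 0 higher, and in Δ(177-191) cells 11 were higher and 10 lower, with 19 of the 30 lower in vector than in Δ(177-191) cells by the direct test and 1 higher (8.15% and 10.1% of all genes). Nupr1 showed the spread most, at -1.89 in vector, -1.003 in K298E, -0.08 in WT and 1.56 in Δ(177-191) cells, where Trib3 fell in all lines (-2.48, -2.37, -3.06 and -0.92).

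Of all genes 5.42% were higher and 7.01% lower in K298E cells, 13.5% and 19% in WT cells and 12.2% and 18.3% in Δ(177-191) cells. In WT cells 5 of the 28 HIF targets were higher and 6 lower, not far from the shares of all genes. In K298E cells 1 was higher and 15 lower, and in Δ(177-191) cells 2 were higher and 18 lower. By the direct test 13 HIF targets were lower in vector than in WT cells (3.27% of all genes). Ndrg1 changed by -1.58 in vector, -1.65 in K298E and -0.07 in WT cells, and Egln3 by -1.08, -0.11 and 1.42. Of the 23 sterol genes 15 were lower in K298E cells, 15 in WT cells and 18 in Δ(177-191) cells, and by the direct test 11 had a lower change in Δ(177-191) than in vector cells. Of the 44 replication genes 1 was higher and 4 lower in K298E cells, and 8 were higher and 9 lower in WT cells, not far from the shares of all genes. By the direct test in limma 0 of the 44 differed between vector and K298E cells (15 higher and 0 lower at an unadjusted p of 0.05), and 2 had a higher change in vector than in WT cells.

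Fewer single genes differed between vector and K298E cells than between vector and the other lines. The difference of the changes passed for 256 probe sets (0.942%), 35 higher and 221 lower in vector cells, and for 165 genes (1.29%), 15 higher (0.117%) and 150 lower (1.17%). For WT cells 798 genes differed (6.23%), 380 higher in vector cells (2.97%) and 418 lower (3.27%), and for Δ(177-191) cells 2331 (18.2%). Without the second K298E array at 6 h 170 probe sets passed. Gpr84, a fatty acid receptor of phagocytes, was at 77, 64 and 69 and then at 69, 63 and 58 in vector cells, while its mean went from 66.7 to 363 in K298E cells, a difference of -2.55 ± 0.18 (adjusted p = 9.57e-13 in limma). Prtn3 fell in vector cells and rose in K298E cells from a mean of 689 to 2100 (-2.46 ± 0.19). Havcr2, the receptor TIM-3, Slpi, a protease inhibitor, and Il18r1, an interleukin 18 receptor chain, differed by -2.19, -1.77 and -1.71. Of genes that changed in vector cells, Selenbp1 (-0.96), Nupr1 (-0.89), Cebpa (-0.81) and Pik3ip1 (-1.07) had a lower change than in K298E cells. Tfrc (0.62) and F2rl2, a thrombin receptor family gene (0.76), had a higher one, and the fall of Zfpm1, a GATA cofactor, in K298E cells (-0.63) had no counterpart in vector cells, where it lay between 759 and 854.

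**Figure D5:**
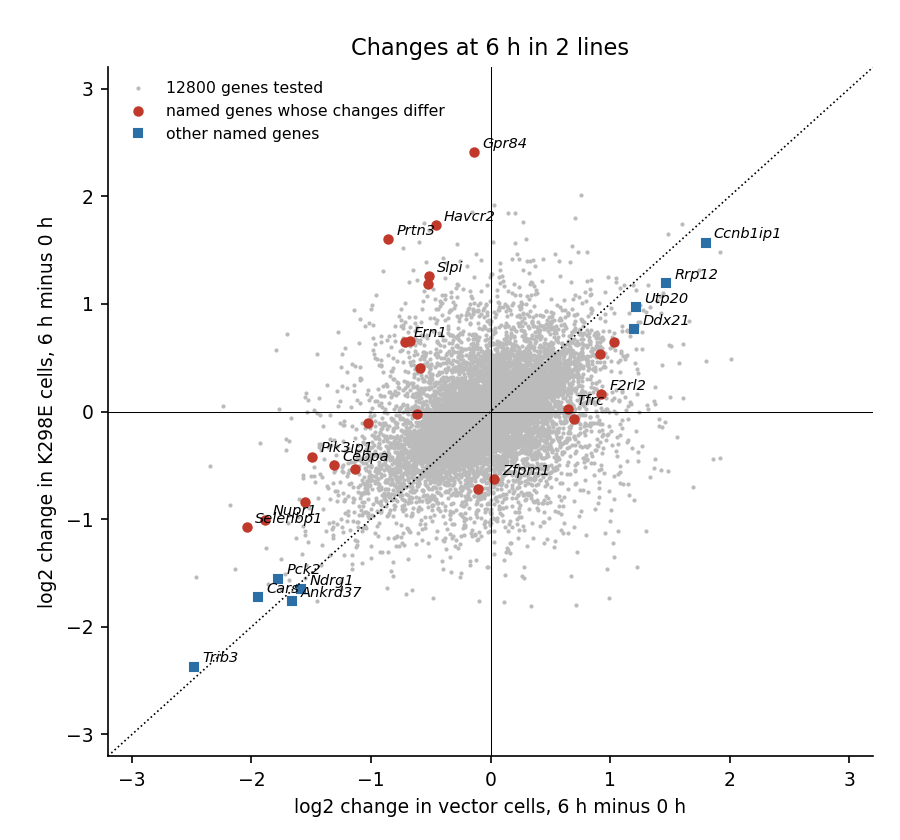
Log2 change at 6 h against 0 h in vector cells (x axis) and K298E cells (y axis) for the 12800 genes tested (grey), named genes whose changes differ between the lines by the test (circles) and other named genes (squares); the dotted line marks equal changes. Trib3, Cars and Pck2 lie near the line at the lower left and Rrp12 and Ccnb1ip1 near it at the upper right, while Gpr84, Prtn3 and Havcr2 lie above it on the left.

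Of the 1073 rises 1 differed from the change in each of the 3 fusion lines, and of the 1536 falls 39 (2.54%). The rise was that of Cd48, an adhesion protein of leukocytes, chosen after its values were seen, which went from 1182, 1209 and 1169 to 1528, 1643 and 1366 (0.35 ± 0.07, adjusted p = 0.000586). Among the falls were Nupr1, Pi16, Nfil3, Ern1, Lcn2, Nfe2, Gadd45a, Slpi and Havcr2, each named above, and the HIF target Ero1a, from 1981, 2321 and 2325 to 1044, 989 and 907 (-1.17, against 0.05, 0.23 and -0.00 in K298E, WT and Δ(177-191) cells). The fall of Havcr2 in vector cells (-0.46) lost its call after quantile normalization and median centring and without any single array of the 6, and that of Slpi (-0.52) without the first 0 h array. The comparison of lines rests on 1 line per construct, so differences between lines and effects of the fusions cannot be told apart.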

How the data were processed

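Total RNA of 48 cultures was hybridised to 48 MOE430_2 arrays, and the 6 vector arrays at 0 h and 6 h are described. The authors' deposited values are MAS5 signal intensity per probe set, a linear unit, per the submitters' processing notes, and the MAS5 version is not given in the sources used here. In all 45101 probe sets were given, and 64 controls were dropped. GEO's platform annotation names 1 gene for 34945 of the remaining 45037, several for 932 and none for 9160. Signals were taken to log2(signal + 3), and a fold change on that scale understates the change of dim genes. A probe set was tested if any of 16 group means exceeded the median log2 value (27167 probe sets). limma 3.58.1 in R 4.3.3 fitted 16 group means over 48 arrays with a variance trend and Benjamini-Hochberg adjustment over all 27167, with a threshold of 0.05. A gene was represented by its probe set of highest mean (12800 genes). Scripts were tested on simulated data.

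Named genes were the 15 largest rises and falls with a signal of at least 100 and no overlap of arrays, up to 3 rises and 3 falls per list with a signal of at least 50, the 5 highest and 5 lowest differences from K298E, and a set of genes always named. The 35 lists held 960 entries, of which 791 were tested. The members, lists and rule were chosen with earlier results of these data known. Other genes were named after their values were seen. Arrays with the same replicate number did not deviate together (correlations 0.01, 0.03 and -0.08), so the numbers were not used as pairs. Alternatives covered the pseudocount, the filter, the scaling, the arrays in the fit, array weights, a replicate block and each array left out. Promoter windows are from RefSeq, GRCm38.p6.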

Additional observations from a re-analysis of the deposited data

Results flagged for a closer look

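The changes at 6 h differed between lines by the direct test in limma. The difference from vector cells passed for 256 probe sets in K298E, 1295 in WT and 3778 in Δ(177-191) cells. Among named genes, the change in vector cells minus that in K298E cells was -2.55 for Gpr84, -2.46 for Prtn3, -2.19 for Havcr2, -1.77 for Slpi, -1.71 for Il18r1, -1.37 for Ern1 and -1.33 for Lcn2. These 7 rose in K298E cells, and all but Gpr84 (-0.14, not passing) fell in vector cells, where Havcr2, Il18r1 and Slpi lost their calls when some single arrays were left out. It was -1.07 for Pik3ip1, -0.999 for Gadd45a, -0.96 for Selenbp1, -0.92 for Nfil3, -0.89 for Nupr1, -0.81 for Cebpa, -0.72 for Pi16, -0.60 for Ypel3 and -0.59 for Nfe2. Positive differences were 0.39 for Hsph1, 0.39 for Srm, 0.62 for Adck1, 0.62 for Tfrc, 0.65 for Zfpm1, 0.76 for F2rl2 and 0.76 for Ankrd10. Each line is 1 culture line, and what sets them apart was not tested.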

How the results depend on the processing

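The count of 4222 probe sets that passed at 6 h was 4184 and 4332 with pseudocounts of 1 and 12, 3686 without the filter, 4404 after quantile normalization, 5180 and 5178 with the 12 vector or 6 compared arrays alone, 5830 with array weights, 5165 with the replicate block and 4479 with a filter on the 2 vector groups, chosen after seeing the data. Median centring gave 1881, and for the differences from K298E, WT and Δ(177-191) 71, 466 and 1561. The cause was not tested, but array medians are coarse whole numbers. Array weights gave 417 for the difference from K298E. Leaving out 1 array gave 3348 to 3430 probe sets at 6 h, 170 to 262 for K298E (170 without the second K298E array at 6 h), 1082 to 1199 for WT and 3315 to 3595 for Δ(177-191). The replicate block gave 211, 1052 and 3584 for the 3 differences, and of the 147 named genes 4 (Gadd45a, Lgals3, Il18r1 and Pf4) lost and 1, Myb, gained its call. Median centring took the call from 31 named genes, quantile normalization from 4, and single arrays left out from 8 to 15.

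Genes that did not pass changed sign: Zfpm1 was at -0.0099 after quantile normalization and -0.065 after median centring, and at -0.0028 to 0.082 with single arrays left out. Spi1 was at -0.056 after median centring and at -0.021 to 0.091 with single arrays left out. Kit ranged from -0.059 to 1.30 and Esr1 from -0.30 to 0.15 with single arrays left out. The Kit and Esr1 probe sets used here were dim, while another Esr1 probe set passed as lower.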
